A study of Mus musculus with 15 samples.

Results

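Quadriceps muscle of adult offspring of mothers fed a high-fat diet was set against that of offspring of chow-fed parents, gene by gene and library by library. The comparison used 6 of 15 libraries: 3 labelled MHS (maternal high-fat diet, sedentary) and 3 labelled NCS (normal chow, sedentary), taken by their group labels. Of 50686 genes in the deposited table, 13499 had a mean of at least 10 normalized counts over all 15 libraries and were tested. The MHS dams, C57BL/6 females, ate a 60% high-fat diet for 6 weeks from 8 weeks of age (8 dams had this diet before they were divided by exercise), while the NCS dams ate normal chow (4 dams). The sires of the maternal study were lean C57BL/6 males aged 14 weeks. Dams of both groups were housed with locked running wheels in pregnancy, and the offspring of both ate chow, were sedentary from birth and were killed at 10 months. The NCS group also served as control of a parallel study of the fathers' diet, and the other 9 libraries come from the exercised maternal group and the paternal groups. No source used here says how many litters a group came from, and a p-value therefore covers only the variation among the libraries at hand. The first part of the sample code is F7 in all 3 MHS libraries and F1 or F6 in the NCS libraries, so within these 6 libraries whatever that code stands for and the maternal diet cannot be told apart. Outside them, 1 library of the exercised maternal group (replicate 3) also carries F7.

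Skeletal muscle fibres carry little of the MHC class I machinery at rest. Interferons, acting through STAT transcription factors and IRF1, raise the genes that cut, transport and present peptides on MHC class I, along with GTPases that attack intracellular pathogens. Class I presentation is the pathway by which any nucleated cell shows fragments of its own proteins to cytotoxic T cells, and it is raised in inflamed muscle. Parental obesity is studied as a cause of altered insulin handling and oxidative metabolism in the muscle of the offspring, so insulin signalling, fatty acid, mitochondrial and fibre type genes were described as well.

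The libraries were first checked for what they contain. Counted reads numbered 24715725, 25781465 and 22927662 in MHS replicates 1, 2 and 3, against 24448553, 23194887 and 23519868 in the NCS replicates. Genes of the skeletal muscle core list (22 genes, such as Ckm and Ttn) made up 307195 to 376085 CPM (reads scaled to the counted total of the library) in these 6 libraries, so the muscle markers of the labelled tissue were present. Liver transcripts differed widely between libraries. The 43 genes of the hepatocyte list summed to 70.4, 6106 and 777 CPM in MHS, against 91.1, 369 and 70.5 CPM in NCS. MHS replicate 2 stood far above every other library and replicate 3 second, while MHS replicate 1 was level with the lowest NCS library. The difference in mean, 2141 CPM, had p = 0.4 in an exact two-sided permutation test, in which 3 against 3 allows no p under 0.1. At least 1 read was found for 19745, 20771 and 17581 genes in MHS, against 19420, 17699 and 20296 in NCS, so MHS replicate 3 and NCS replicate 2 had the fewest. Each group mean therefore includes 1 library with few detected genes, and the MHS mean includes 2 libraries with liver RNA beside 1 in the NCS mean.

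**Figure D1:**
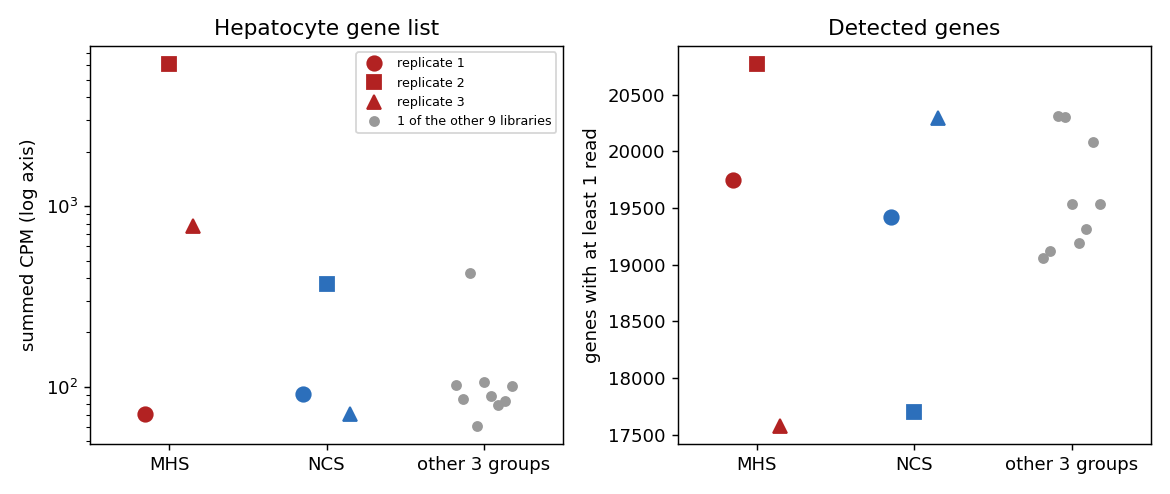
Summed CPM of the 43 hepatocyte-list genes (left, log axis) and number of genes with at least 1 read (right) in each MHS and NCS library, by replicate, beside the other 9 libraries. MHS replicates 2 and 3 lie above every other library for liver genes at 6106 and 777 CPM, and MHS replicate 1, at 70.4 CPM, lies with the controls.

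No gene passed limma with Benjamini-Hochberg adjustment at 0.05 over the 13499 tested genes (0 genes, 0.0%), and the lowest adjusted p was 0.204. With p unadjusted and a limit of 0.05, 357 genes were higher (2.64%) and 189 lower (1.4%) in MHS, together 546 (4.04%). On recovered reads edgeR and limma voom also called 0 genes, and had 749 and 469 below 0.05 before adjustment. DESeq2 called 18 genes (0.133%), 17 of them higher in MHS (0.126%). Of the 18, 11 belong to the interferon and class I lists, 4 (Abcc2, Aspdh, Cpn1 and Serpina1e) are known as liver genes, and the others are Irs1, Stxbp2 and Ano6. All 3 MHS values lay above all 3 NCS values for 599 genes (4.44%) and below them for 483 (3.58%), together 1082 (8.02%). These percentages are the background against which the gene lists are read. Below, values per library are normalized counts in the order of replicates 1, 2 and 3, and a difference is the log2 of MHS minus NCS with its SE. The median log2 difference over all tested genes was 0.01, and 53.0% of genes had a higher mean in MHS.

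Interferon and class I genes were described over 5 lists that differed in how many members separated the groups. Over these lists (interferon gamma signalling, guanylate-binding proteins, immunity-related GTPases, class I presentation and type I antiviral genes) 102 of 119 listed genes were tested. Of the 102, 100 also had a mean of at least 10 over the 12 libraries that are not MHS, so 2 were tested only because of their MHS values. Means were higher in MHS for 83 of the 102, with a median log2 difference of 0.36. Values did not overlap, with MHS higher, for 31 of the 102, and with MHS lower for 3. At an unadjusted limma p under 0.05 there were 32 higher and 1 lower, and none passed the adjustment over all genes. Because these are bulk samples, fewer cells of a type and less RNA per cell cannot be told apart in any of the values given here.

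Promoters of 5 of these genes are shown because interferon acts through short elements in them. They are taken from RefSeq (GRCm38.p6) and run from 250 bases before the annotated start to 50 bases from it, 5′ to 3′ on the strand of the gene. Capitals mark matches to the interferon-stimulated response element type GAAANNGAAA, searched on both strands, and to the gamma-activated site type TTCNNNGAA, which reads the same on both strands.
Bst2: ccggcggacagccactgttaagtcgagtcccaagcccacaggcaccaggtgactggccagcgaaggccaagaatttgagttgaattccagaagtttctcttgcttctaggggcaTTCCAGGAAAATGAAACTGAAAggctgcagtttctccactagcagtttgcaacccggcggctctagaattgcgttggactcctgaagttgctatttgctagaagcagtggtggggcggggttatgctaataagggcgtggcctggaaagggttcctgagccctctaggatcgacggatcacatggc
B2m: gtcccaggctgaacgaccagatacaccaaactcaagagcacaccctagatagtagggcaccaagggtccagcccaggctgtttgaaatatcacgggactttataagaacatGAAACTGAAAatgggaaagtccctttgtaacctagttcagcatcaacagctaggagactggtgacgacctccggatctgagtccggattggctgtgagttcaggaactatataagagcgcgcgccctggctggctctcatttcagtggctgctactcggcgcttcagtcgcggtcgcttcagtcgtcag
Gbp2: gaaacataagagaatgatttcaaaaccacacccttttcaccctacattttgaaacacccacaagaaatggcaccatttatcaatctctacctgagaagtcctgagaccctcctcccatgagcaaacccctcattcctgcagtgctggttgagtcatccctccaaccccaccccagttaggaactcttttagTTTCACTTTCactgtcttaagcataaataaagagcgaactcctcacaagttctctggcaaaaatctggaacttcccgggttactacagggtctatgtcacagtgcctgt
Gbp3: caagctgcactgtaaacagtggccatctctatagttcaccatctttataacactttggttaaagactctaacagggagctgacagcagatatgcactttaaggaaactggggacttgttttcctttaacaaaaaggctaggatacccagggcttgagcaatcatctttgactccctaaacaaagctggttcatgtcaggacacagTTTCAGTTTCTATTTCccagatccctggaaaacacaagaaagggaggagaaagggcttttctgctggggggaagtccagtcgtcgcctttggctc
Tap1: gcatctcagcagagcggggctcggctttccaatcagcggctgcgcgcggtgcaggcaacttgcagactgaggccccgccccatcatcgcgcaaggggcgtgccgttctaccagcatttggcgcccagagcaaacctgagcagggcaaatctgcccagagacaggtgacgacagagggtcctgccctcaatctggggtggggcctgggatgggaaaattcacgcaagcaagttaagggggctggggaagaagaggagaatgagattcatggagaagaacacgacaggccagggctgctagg
The windows are chr8:71537423-71537722 (minus strand) for Bst2, chr2:122147437-122147736 (plus strand) for B2m, chr3:142620413-142620712 (plus strand) for Gbp2, chr3:142559794-142560093 (plus strand) for Gbp3 and chr17:34187306-34187605 (plus strand) for Tap1. In Bst2 the capitals cover 2 overlapping matches of the first type and 1 of the second that overlaps them. B2m has 1 match of the first type at position -139 from its start, Gbp2 has 1 at position -59, and Gbp3 has 2 that overlap. The Tap1 window holds neither string, and it overlaps the window of Psmb9, which is transcribed the other way from the same stretch. Over the promoters of 10129 tested genes the first string was found in 2.84%, the second in 6.60% and either in 9.08%. Of the 31 list genes with non-overlapping higher values 26 had a promoter in the table, and 9 of these held the first string, 8 the second and 13 either. Of the other 71 tested genes of the lists 53 had a promoter, and 22, 10 and 26 of those held them. The match is to letters only, and binding was not measured.

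Class I presentation was the list with most separated members. Of 24 tested genes 22 had higher means in MHS, 12 did not overlap with MHS higher, 0 with MHS lower, and 12 had an unadjusted p under 0.05, with a median log2 difference of 0.54. Tap1 (ENSMUSG00000037321.17, chromosome 17, 34187553 to 34197225, GRCm38), a subunit of the transporter that carries peptides into the endoplasmic reticulum, stood at 298, 199 and 193 normalized counts in the MHS libraries, against 94.5, 43.4 and 102 in the NCS libraries. The lowest MHS library had more than the highest NCS library, and all 3 exceeded the other 9 libraries of the series as well (72.3 to 162). Its log2 difference was 1.58 ± 0.31 (adjusted p = 0.347, limma with Benjamini-Hochberg adjustment). DESeq2 gave an adjusted p of 0.00155 for Tap1, and over the alternatives it reached 1.00. Its partner subunit Tap2 stood at 280.4, 222 and 365 normalized counts in the MHS libraries, against 161, 196 and 182 in the NCS libraries. Groups did not overlap for Tap2, and MHS replicate 3 was the highest where for Tap1 it was the lowest. Tapbp, the tapasin that bridges the transporter to class I molecules, had 906, 885 and 959.6 in MHS against 679, 805 and 722 in NCS, with little spread among MHS libraries and no overlap.

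Immunoproteasome subunits replace those of the constitutive proteasome and favour peptides that fit class I molecules. Of these, Psmb9 and Psmb8 also separated the groups, whereas Psmb10 did not. Psmb9 had 115, 87.0 and 86.4 normalized counts in the MHS libraries, against 45.7, 43.4 and 46.3 in the NCS libraries. The NCS libraries lay close together, and all MHS libraries were above the other 9 (26.5 to 68.1); the log2 difference was 1.06 ± 0.27. Psmb9 and Tap1 are neighbours on chromosome 17 whose annotated spans overlap at their starts on opposite strands, and the labels do not state the strand setting of the counting, so reads of that overlap could be assigned to either. Psmb8 had 133, 104 and 145 in MHS against 59.9, 90.9 and 81.9 in NCS, again without overlap.

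B2m, the invariant light chain of class I molecules (ENSMUSG00000060802.8, chromosome 2, 122147686 to 122153083), averaged 1372 ± 214 in MHS against 873 ± 159 in NCS (SD, n = 3 each). Each MHS library had more than any NCS library, from values of 1288, 1616 and 1213 in MHS against 820.0, 748 and 1052 in NCS, although MHS replicate 3 was only slightly above NCS replicate 3. The difference was 0.66 ± 0.15 on the log2 scale. For the classical heavy chain H2-K1 the libraries had 2654, 3040.4 and 3301 in MHS against 1701, 2079 and 2018 in NCS. H2-D1, the other classical heavy chain of this strain, had 2548, 2446 and 3287 in MHS against 1615, 2177 and 1953 in NCS. Both heavy chains separated the groups, and for both MHS replicate 3 was the highest. H2-T23, the non-classical heavy chain Qa-1, had 402, 454 and 321 in MHS against 187, 241 and 239 in NCS and a difference of 0.81 ± 0.18. All 3 heavy chains and B2m were above the other 9 libraries in every MHS library.

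The H2-Q genes are near-identical copies whose reads could be divided between them, so their values are uncertain. H2-Q4 had 615, 333 and 554 in MHS against 236, 287 and 363 in NCS. H2-Q6 had 417, 181 and 366 in MHS against 150.4, 148 and 221 in NCS. H2-Q7 had 319, 152 and 356 in MHS against 113, 101 and 142 in NCS. In H2-Q4 and H2-Q6 the highest NCS library exceeded MHS replicate 2, and in H2-Q7 the groups did not overlap. H2-Q10 encodes a class I molecule that hepatocytes secrete, and it went with the liver genes: its values were 8.38, 1142 and 232 in MHS against 26.4, 101 and 21.4 in NCS. MHS replicate 1 was the lowest of the 6 libraries for H2-Q10 and replicate 2 the highest. H2-Q10 was singled out after its values were seen.

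Regulators above these genes showed the same division for some and not for others. Of 17 tested genes of the interferon gamma signalling list 13 had higher means in MHS, 6 did not overlap with MHS higher and 1 with MHS lower. Nlrc5, the transactivator of class I promoters (ENSMUSG00000074151.13, chromosome 8, 94434356 to 94527272), stood at 208, 139 and 152 normalized counts in the MHS libraries, against 43.7, 75.8 and 53.4 in the NCS libraries. Every MHS library was above every NCS library and above the other 9 (61.1 to 114), with a difference of 1.53 ± 0.26 (adjusted p = 0.204, limma with Benjamini-Hochberg adjustment). DESeq2 gave Nlrc5 an adjusted p of 0.000216, and the highest over the alternatives was 1.00. Irf1, an early target and mediator of interferon gamma, had 296, 274 and 203 in MHS against 185, 103 and 151 in NCS. Irf9, which pairs with STAT proteins in the type I response, had 149, 180.2 and 116 in MHS against 92.5, 79.8 and 109 in NCS. Neither overlapped between groups. Stat3, which answers interleukin-6 family cytokines, had 1547, 1537 and 1632 in MHS against 1237, 1387 and 1315 in NCS, with no overlap but a difference of 0.26 ± 0.12. The other 9 libraries ranged over 1269 to 1754 for Stat3 and so covered its MHS values. Ifnar2, a subunit of the type I interferon receptor that is in none of the gene lists, had 88.5, 127 and 122 in MHS against 67.1, 58.6 and 65.0 in NCS and a difference of 0.80 ± 0.18.

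Cd274 encodes PD-L1, an interferon-inducible ligand that restrains T cells. It stood at 241, 127 and 74.6 normalized counts in the MHS libraries, against 33.5, 27.3 and 48.1 in the NCS libraries. The MHS values spread widely, with replicate 1 highest, and none was as low as a control. The difference was 1.87 ± 0.34 (adjusted p = 0.213, limma with Benjamini-Hochberg adjustment). Without MHS replicate 3 it was 2.28 (adjusted p = 0.0432, limma with Benjamini-Hochberg adjustment), and Cd274 was the only gene that passed in any limma fit. DESeq2 gave 0.000216, and the highest adjusted p over the alternatives was 1.00.

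All 8 tested guanylate-binding proteins, GTPases that assemble on membranes of pathogens, had higher means in MHS, with a median log2 difference of 1.12. Values of 4 did not overlap, with MHS higher, and 5 had an unadjusted p under 0.05. Gbp4 (ENSMUSG00000079363.7, chromosome 5, 105115767 to 105139586) stood at 635, 323 and 243 normalized counts in the MHS libraries, against 87.4, 99.0 and 128 in the NCS libraries. The difference of Gbp4 was 1.82 ± 0.32 (adjusted p = 0.204, limma with Benjamini-Hochberg adjustment), and DESeq2 gave 0.000109, with 1.00 the highest over the alternatives. Gbp2 had 240.3, 159 and 118 in MHS against 63.0, 30.3 and 84.6 in NCS and a difference of 1.58 ± 0.32. Gbp3 had 204, 134 and 92.9 in MHS against 41.7, 42.4 and 71.2 in NCS and a difference of 1.43 ± 0.29. MHS replicate 1 was highest and replicate 3 lowest in each of these, and no value overlapped a control. Gbp7 had 235, 151 and 110.2 in MHS against 84.3, 52.5 and 103 in NCS, also without overlap, whereas Gbp5, at 197, 131 and 64.8 in MHS against 54.9, 31.3 and 75.7 in NCS, overlapped because MHS replicate 3 was under NCS replicate 3. Among MHS libraries, replicate 1 was the highest for all 8. The guanylate-binding proteins are a family of similar copies, and reads shared between them could be divided differently by another counting.

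Of 10 tested immunity-related GTPases, which act on vacuoles of intracellular parasites, 9 had higher means in MHS and 4 did not overlap (0 with MHS lower), with a median of 0.63. Iigp1 stood at 277, 247 and 106 normalized counts in the MHS libraries, against 43.7, 39.4 and 80.1 in the NCS libraries. Its MHS replicate 3 was closer to the controls than to the other MHS libraries, and the difference was 1.88 ± 0.39. Ifi47 had 42.9, 26.4 and 23.8 in MHS against 9.14, 6.06 and 19.6 in NCS and a difference of 1.44 ± 0.43. Tgtp1 and Tgtp2 are near-identical copies, and Tgtp1 had 34.5, 30.8 and 10.8 in MHS against 3.05, 0 and 12.5 in NCS. Tgtp2 had 71.7, 30.8 and 28.1 in MHS against 15.2, 13.1 and 19.6 in NCS. Tgtp1 overlapped between the groups and Tgtp2 did not, and the division of reads between them is uncertain.

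The type I antiviral genes were mixed. Of 43 tested members 31 had higher means, 5 did not overlap with MHS higher and 2 with MHS lower, and the median log2 difference was 0.16. The median depended on single libraries: it was 0.067 without MHS replicate 2 (26 of 43 higher), 0.32 without MHS replicate 3 (37 of 43), 0.34 without NCS replicate 3 and 0.091 without NCS replicate 2. Leaving out the 4 libraries that hold liver RNA gave 0.11. Bst2, the tetherin that holds budding virus particles at the membrane, stood at 169.5, 192 and 172 normalized counts in the MHS libraries, against 81.3, 98.0 and 97.9 in the NCS libraries. The MHS libraries lay within a narrow range and all exceeded the other 9 (94.7 to 143), and the difference was 0.94 ± 0.16 (adjusted p = 0.204, limma with Benjamini-Hochberg adjustment). Rsad2, the antiviral enzyme viperin, had 191, 178 and 165 in MHS against 84.3, 70.7 and 126 in NCS. Its neighbour on chromosome 12, Cmpk2, a mitochondrial nucleotide kinase, had 69.9, 80.9 and 67.0 in MHS against 48.8, 35.4 and 49.8 in NCS. Both were without overlap. Uba7, the enzyme that activates ISG15, had 219, 186 and 197 in MHS against 118, 120.2 and 147 in NCS and a difference of 0.64 ± 0.16. Samhd1, which degrades the nucleotides that viruses copy with, had 678, 683 and 659 in MHS against 556, 511 and 619 in NCS, a small difference of 0.27 ± 0.11 without overlap. Other genes of the list went otherwise. Isg15, the ubiquitin-like modifier itself and a gene named after its values were seen, had 23.3, 19.3 and 18.4 in MHS against 13.2, 18.2 and 24.03 in NCS. Ifitm3, which blocks virus entry, had 445, 541 and 379 in MHS against 332, 338 and 392 in NCS, with MHS replicate 3 below NCS replicate 3. Ifit3b, an RNA-binding antiviral gene with a near-identical copy, ran the other way at 49.4, 54.5 and 35.7 in MHS against 99.6, 69.7 and 78.3 in NCS, with no overlap and a difference of -0.82 ± 0.28.

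**Figure D2:**
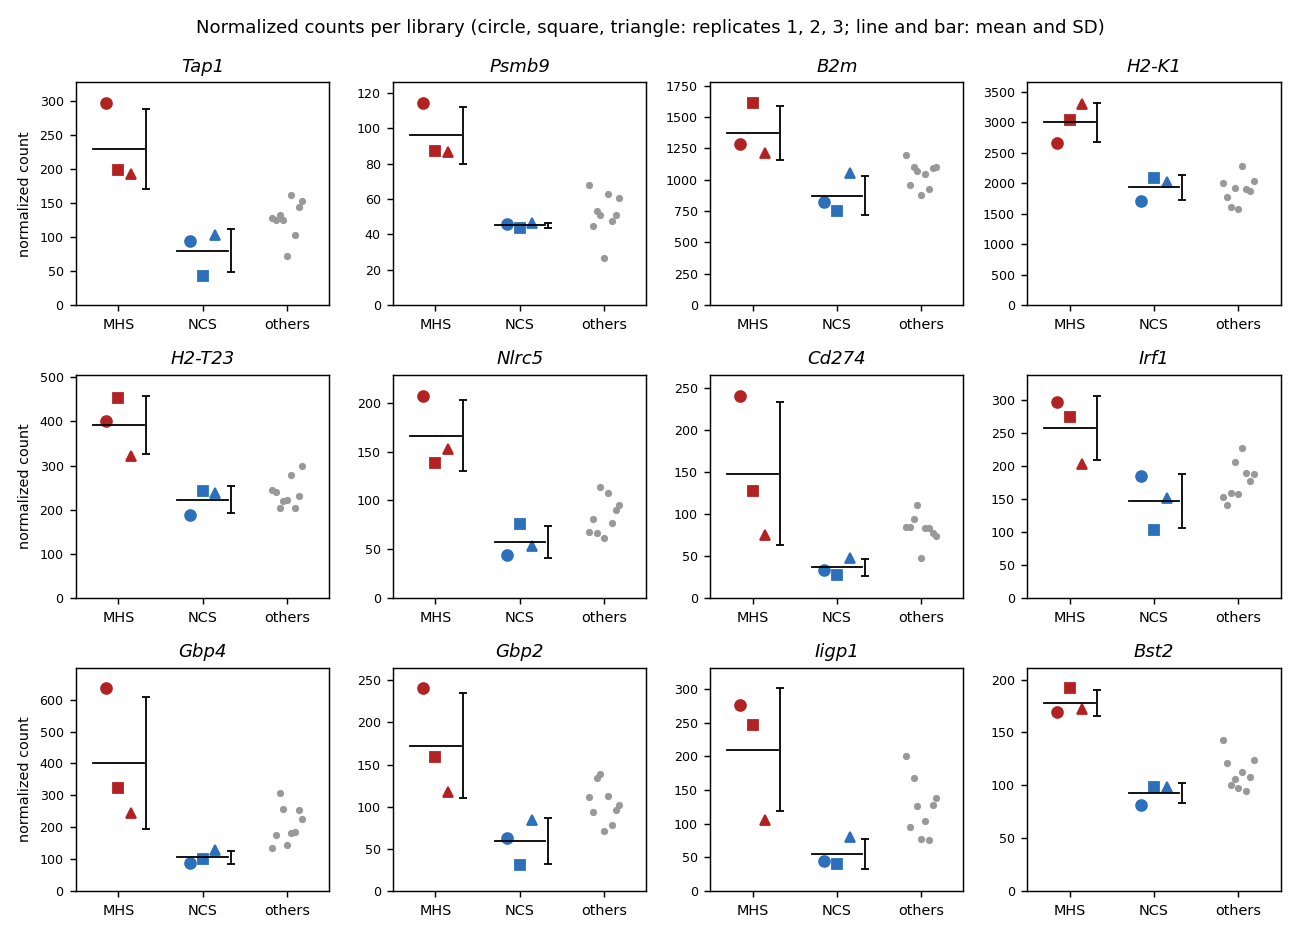
Normalized counts of 12 interferon-inducible and class I genes in each MHS (red) and NCS (blue) library, with group means and SD (n = 3), and in the other 9 libraries (grey). MHS lies above NCS without overlap in all 12, and the other 9 libraries of Gbp4 run from 135 to 306 beside 87.4 to 128 in NCS.

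The NCS libraries lay at the low end of the whole series for some of these genes. For Gbp4 the other 9 libraries held 135 to 306 normalized counts, all above the highest NCS library. For Cd274 they held 47.8 to 111, and all but the lowest exceeded NCS. Tap1, Nlrc5, Bst2, H2-T23, H2-K1, B2m, Uba7, Psmb9, H2-D1, Cmpk2, Tapbp and Samhd1 are the 12 of the 102 list genes for which all 3 MHS libraries were above all 12 other libraries. Over all tested genes that held for 39 (0.289%). Among class I genes it held for 7 of 24. The exercised maternal library that shares the code F7 is 1 of the 12 other libraries. Its place below MHS for these genes was thus fixed by their selection, and the part of that code was not tested.

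The interferon and class I genes were set beside the liver transcripts in each MHS library. Of the 102 genes, 52 exceeded all NCS libraries in MHS replicate 1, 64 in replicate 2 and 46 in replicate 3, against 17.4%, 21.4% and 28.4% of all tested genes. The count was thus highest in replicate 2, which also held the most liver RNA. Replicate 1 was the highest of the 3 for 38 of the 102, replicate 2 for 40 and replicate 3 for 24. Over all 13499 tested genes these counts were 4149, 4253 and 5097. Summed over the lists, the genes made up 1481, 1571 and 1322 CPM in MHS against 1068, 1115 and 1390 CPM in NCS. The other 9 libraries held 1245 to 1449 CPM. MHS replicates 1 and 2 thus lay above that range and NCS replicates 1 and 2 below it, with replicate 3 of both groups inside it. The lists differed in which library led: replicate 1 was highest for all 8 guanylate-binding proteins and 8 of 10 immunity-related GTPases, and replicate 2 for 25 of 43 type I antiviral genes. The 24 class I genes were divided as 6, 8 and 10 over replicates 1, 2 and 3, near the division over all tested genes. In MHS replicate 1 alone, set against the mean of the 3 NCS libraries, 81 of the 102 interferon and class I genes were higher (median log2 difference 0.39), and 14 of 42 tested hepatocyte genes were (median -0.38). The mean of MHS replicates 2 and 3 gave medians of 0.31 and 6.41. For hepatocyte genes that NCS mean includes replicate 2, which holds liver RNA itself. Their median normalized count was 4.66 in MHS replicate 1, against 0 and 1.78 in NCS replicates 1 and 3. The negative median is therefore not read as less liver RNA in MHS replicate 1. For the 31 list genes with non-overlapping higher values, MHS replicate 1 was the highest of the 3 for 16, replicate 2 for 7 and replicate 3 for 8. With all 4 libraries that hold liver transcripts left out (MHS replicates 2 and 3, NCS replicate 2 and a paternal one), MHS is replicate 1 alone and assumed to vary like the other groups. In that fit 78 of 102 genes were higher with a median of 0.36. The median of the guanylate-binding proteins rose from 1.12 to 1.62. That of class I presentation fell from 0.54 to 0.46 (19 of 24 higher, from 22). Interferon gamma signalling fell from 0.38 to 0.34 (11 of 17 higher, from 13). Immunity-related GTPases stayed near their median, at 0.64 from 0.63, and type I antiviral genes went from 0.16 to 0.11. With a liver score as covariate the median over the 102 was 0.35 and 82 were higher. By list it was 0.46 for class I presentation, 0.30 for interferon gamma signalling and 1.48 for guanylate-binding proteins. Immunity-related GTPases were at 0.69 and type I antiviral genes at 0.20 with that score.

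**Figure D3:**
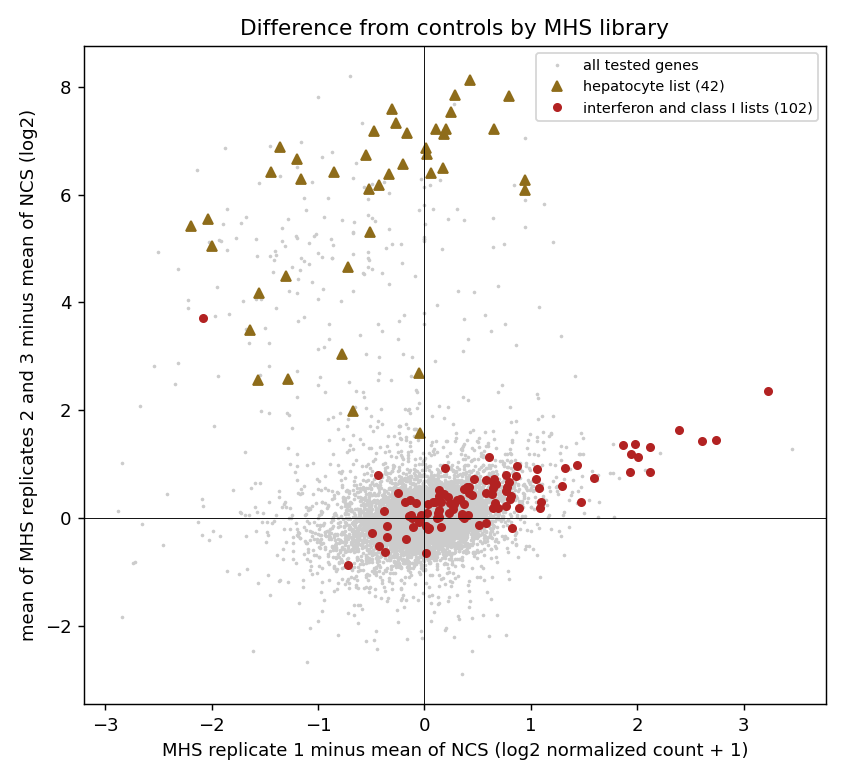
Log2 difference of MHS replicate 1 from the NCS mean (horizontal) against that of the mean of MHS replicates 2 and 3 (vertical), for all 13499 tested genes, the 42 hepatocyte genes and the 102 interferon and class I genes. Hepatocyte genes lie high on the vertical axis and around 0 on the horizontal one, where the NCS mean includes replicate 2 with its liver RNA. Most interferon genes are above 0 on both axes. The red point among the hepatocyte genes is H2-Q10.

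The 42 tested hepatocyte genes had a median of 4.66, 2079 and 249 normalized counts in MHS replicates 1, 2 and 3, against 0, 88.9 and 1.78 in NCS. Only 33 of the 42 had a mean of at least 10 over the 12 libraries that are not MHS, so 9 were tested because of their MHS values and no count of directions is read from the list. Of the 42, 4, 0 and 0 had no read in MHS replicates 1, 2 and 3, against 24, 1 and 10 in NCS. Albumin (Alb) stood at 61.5, 39506 and 4225 normalized counts in the MHS libraries, against 3.05, 1156 and 20.5 in the NCS libraries. Apoa1, the main protein of high-density lipoprotein, stood at 14.0, 7839.6 and 1605 normalized counts in the MHS libraries, against 0, 541 and 10.7 in the NCS libraries. Both were highest in MHS replicates 2 and 3 with NCS replicate 2 next, and both overlapped between groups. Vtn, the adhesion protein vitronectin, had 351, 2037 and 571 in MHS against 268, 602 and 291 in NCS. Ass1, an enzyme of the urea cycle, had 44.7, 723 and 129.7 in MHS against 29.5, 74.7 and 45.4 in NCS. MHS replicate 2 was again the highest, and both genes overlapped. Clec4f, which marks Kupffer cells, the macrophages of liver, was at 0, 163 and 4.32 in MHS against 0, 3.03 and 0 in NCS. Of the 6 genes of the Kupffer list 3 were tested, 2 of them because of their MHS values, so no median is given. Of 6 tested genes of liver sinusoidal endothelium and stellate cells 4 had higher means (median 0.16, and -0.097 without MHS replicate 2 or -0.016 without NCS replicate 3). Outside the list, Slc2a2, the glucose transporter GLUT2 of hepatocytes, had 1.86, 155 and 10.8 in MHS against 0, 0 and 0.890 in NCS. The liver enzymes Ces3a, Cyp2j5 and Ugt2b34, and Serpina1e of the list, a serum protease inhibitor, had 0 reads in every NCS library. In MHS replicate 1 each of these 4 had 0.932 normalized counts, which is 1 read. They thus counted as non-overlapping on 1 read, and no fold is given. In MHS replicates 2 and 3 they had 244 and 71.3 (Ces3a), 205 and 7.56 (Cyp2j5), 235 and 14.0 (Ugt2b34) and 20.2 and 216 (Serpina1e).

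The liver genes that DESeq2 called moved with those libraries. Cpn1, the catalytic subunit of plasma carboxypeptidase N, had 11.2, 257 and 47.5 in MHS against 4.06, 9.09 and 9.79 in NCS. Abcc2, a bile canalicular transporter, had 2.79, 563 and 41.1 in MHS against 0, 4.04 and 0.890 in NCS. Aspdh, an aspartate dehydrogenase, had 1.86, 115 and 29.2 in MHS against 1.02, 2.02 and 0 in NCS. Each was several times higher in MHS replicates 2 and 3 than in replicate 1, which lay at or beside the NCS values.

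Macrophage genes had higher MHS means in 13 of 15 tested members, with a median of 0.64, but the libraries differed. MHS replicate 1 exceeded all NCS libraries in 0 of the 15 genes, replicate 2 in 14 and replicate 3 in 10. Csf1r, the receptor for macrophage colony-stimulating factor, had 78.3, 211 and 138 in MHS against 63.0, 84.8 and 70.3 in NCS, so the order of its MHS values was that of the liver genes. Summed CPM of the list was 26.8, 72.96 and 42.3 in MHS against 28.7, 34.1 and 33.04 in NCS. Without the 4 libraries with liver transcripts the median was -0.10, with 6 of 15 higher. MHC class II genes, which antigen-presenting cells carry, had higher means in 4 of 6, with Cd74, the invariant chain, at 354, 433 and 523 in MHS against 265, 326 and 246 in NCS. For Cd74 no values overlapped although MHS replicate 1 was closest to the controls. Its other 9 libraries ranged over 228 to 767, beyond both groups. The 20 genes of the lymphocyte list, of which 1 was tested, summed to 0.809, 3.18 and 1.92 CPM in MHS against 1.80, 2.07 and 2.38 CPM in NCS. MHS replicate 1 had the lowest sums of both lists among the 6 libraries and MHS replicate 2 the highest. The guanylate-binding proteins were highest in replicate 1, whereas the 5 interferon lists together had their highest sum in replicate 2, as the macrophage list did. The part of such cells in the interferon genes was not tested.

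Among insulin signalling genes Irs1 stood out. Irs1, the adaptor that carries the signal of the insulin receptor to phosphatidylinositol 3-kinase (ENSMUSG00000055980.2, chromosome 1, 82233101 to 82291416), stood at 1009.8, 1109 and 1536 normalized counts in the MHS libraries, against 562, 665 and 504 in the NCS libraries. The lowest MHS library exceeded the highest NCS library, and the difference was 1.06 ± 0.26 (adjusted p = 0.688, limma with Benjamini-Hochberg adjustment). DESeq2 gave an adjusted p of 0.0357, and the highest over the alternatives was 1.00. The other 9 libraries ranged over 597 to 1512 and so covered all MHS values but the highest. NCS replicates 1 and 3 lay below all 9, so the controls were at the low end of the series for Irs1. Trib3, a pseudokinase that binds AKT and dampens its activity, had 58.7, 59.8 and 54.0 in MHS against 38.6, 34.3 and 37.4 in NCS, without overlap and with all MHS libraries close together. Slc2a4, the insulin-responsive glucose transporter GLUT4, had 14236, 13046 and 15225 in MHS against 15248, 15718 and 12159.7 in NCS and overlapped fully. Of 31 tested genes of the list 22 had higher means, 2 did not overlap (both with MHS higher), and the median was 0.08.

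Fatty acid uptake and oxidation genes had higher means in 28 of 32, with a median of 0.21 and 5 without overlap, all higher in MHS. The median ranged from 0.09 to 0.34 over the alternatives. Lipe, hormone-sensitive lipase, had 1236, 1201 and 1573 in MHS against 894, 1179.8 and 989 in NCS, where MHS replicate 2 just exceeded NCS replicate 2. Pdk4, the kinase that closes pyruvate dehydrogenase when fat is burned, had 75412, 84613 and 71568 in MHS against 74843, 52392 and 78716 in NCS and overlapped. Pparg, the lipid-sensing nuclear receptor, had 70.8, 90.5 and 100.5 in MHS against 39.6, 46.5 and 59.6 in NCS without overlap and a difference of 0.84 ± 0.30. The other 9 libraries ranged over 36.1 to 106 for Pparg, beyond both groups. Lpin1, a phosphatidate phosphatase and coactivator of PPAR targets, had 17025, 19196 and 22007 in MHS against 13663, 12869 and 13688 in NCS, and its NCS values lay close together below every MHS value. The NCS values of Lpin1 were also at the low end of the other 9 libraries (13438 to 25576). Ppargc1a, the coactivator PGC-1 alpha, had 522, 703 and 783 in MHS against 619.8, 759.6 and 374 in NCS and overlapped, with a difference of 0.24 ± 0.34 that was -0.056 without NCS replicate 3. In the glycolysis list 8 of 22 means were higher, with a median of -0.02, and Pfkfb3, which makes the activator of phosphofructokinase, was the 1 gene without overlap at 23951, 20554 and 22709 in MHS against 17291, 14456 and 18945 in NCS. Cat, the peroxide-degrading catalase, had 4444, 5720.4 and 5262 in MHS against 2712, 4169 and 4524 in NCS, with MHS replicate 1 below NCS replicate 3.

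**Figure D4:**
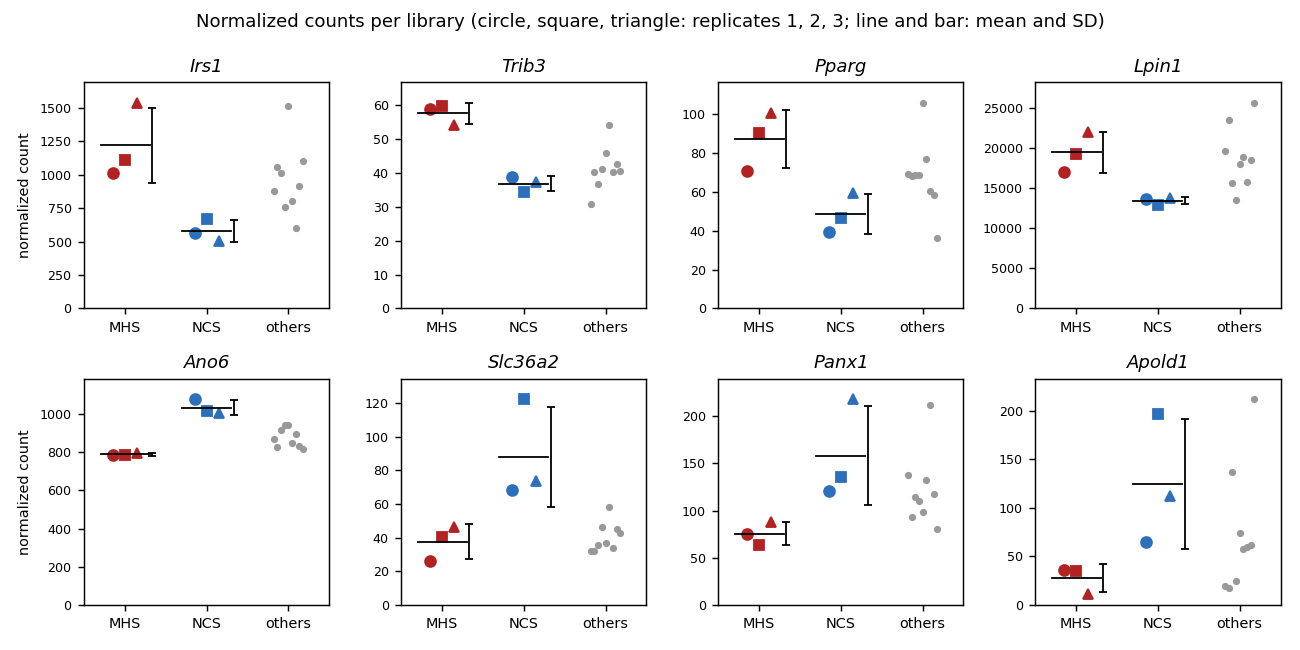
Normalized counts of 8 genes outside the interferon lists in each MHS (red) and NCS (blue) library, with group means and SD (n = 3), and in the other 9 libraries (grey). Irs1, Trib3, Pparg and Lpin1 are higher and Ano6, Slc36a2, Panx1 and Apold1 lower in MHS, in each case without overlap.

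Slow fibre genes had higher means in 14 of 15, with a median of 0.53, yet 0 of the 15 separated the groups. Myh7, the slow myosin heavy chain, had 41403, 34679.9 and 25919 normalized counts in the MHS libraries, against 8832, 30628 and 38166 in the NCS libraries. NCS replicate 1 was far below the other 5 libraries, whose values overlapped. Tnni1, the slow troponin I, showed the same with 7740.3, 6777 and 5294 in MHS against 1476, 6083 and 6492 in NCS. So did Mb, the oxygen store myoglobin, with 51531, 44344 and 50029.8 in MHS against 25473, 49919 and 41263 in NCS. Without NCS replicate 1 the list's median was -0.03. Nuclear genes of complex I (37 tested, 23 higher, median 0.03) and of complexes II to V (41 tested, 24 higher, median 0.05) lay at the background. The 9 tested genes of the mitochondrial genome had lower means in MHS, with a median of -0.13. The complex I subunit mt-Nd1 had 92049, 80828 and 37874 in MHS against 104152, 44518 and 108517 in NCS. MHS replicate 3 and NCS replicate 2, the libraries with the fewest detected genes, were the lowest for it, and the median of the list was 0.27 without MHS replicate 3 and 0.18 without NCS replicate 3.

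Atrophy genes had higher means in 16 of 25 with a median of 0.03, and 3 did not overlap, all higher in MHS. Trim63, the muscle ubiquitin ligase MuRF1, had 50428, 44321 and 48107 in MHS against 36221, 30242 and 34199 in NCS, all MHS above all NCS with a difference of 0.51 ± 0.34 that is small beside the range of the other 9 libraries (21955 to 118067).

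No single gene list held more than 2 genes that were lower in MHS without overlap. The lower genes were not grouped otherwise, except by annotated gene type further below. Ano6, the calcium-activated lipid scramblase TMEM16F (ENSMUSG00000064210.6, chromosome 15, 95790843 to 95974751), stood at 784, 783 and 796 normalized counts in the MHS libraries, against 1077, 1013 and 1007 in the NCS libraries. The spread within each group was small, and the other 9 libraries (815 to 945) lay between the groups without overlapping either. The difference was -0.39 ± 0.09 (adjusted p = 0.688, limma with Benjamini-Hochberg adjustment), and DESeq2, whose only lower call it was, gave 0.0216; the highest over the alternatives was 1.00. Slc36a2, a proton-coupled amino acid transporter, had 26.1, 40.4 and 46.5 in MHS against 68.1, 122 and 73.9 in NCS. Its other 9 libraries (31.8 to 58.1) were all below the NCS values, so NCS and not MHS stood apart there. Apold1, an early response gene of endothelial cells, had 36.3, 35.2 and 10.8 in MHS against 65.0, 197 and 112 in NCS and a difference of -2.18 ± 0.68. Panx1, the ATP-releasing channel pannexin 1, had 75.5, 63.3 and 87.5 in MHS against 121, 135 and 218 in NCS. Neither overlapped, and in both 1 NCS library was far above the other NCS values. The other 9 libraries ranged over 17.7 to 212 for Apold1 and 80.0 to 213 for Panx1. Itgb6, an integrin subunit that activates transforming growth factor beta, had 174, 206 and 177 in MHS against 337, 322 and 295 in NCS, a wide separation of the groups that the other 9 libraries bridged (47.1 to 334). Dusp10, a phosphatase of stress kinases, had 331, 309 and 266 in MHS against 422, 413 and 511 in NCS. Hey1, a Notch target, had 72.7, 70.3 and 49.7 in MHS against 106, 94.9 and 90.8 in NCS. Both were without overlap. The other 9 libraries of Dusp10 (158 to 412) were all below its NCS values, so NCS stood apart there too. Those of Hey1 ranged over 57.9 to 116.

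Further genes chosen for the width of the gap between groups were lower in MHS at moderate levels. Retnla, a resistin-like protein of alternatively activated macrophages, had 44.7, 49.2 and 52.9 in MHS against 80.3, 81.8 and 67.6 in NCS. Mpg, a DNA glycosylase, had 45.6, 52.7 and 52.9 in MHS against 71.1, 83.8 and 68.5 in NCS. Lurap1, an adaptor of cytoskeletal kinases, had 72.7, 73.8 and 76.7 in MHS against 98.6, 96.0 and 113 in NCS. These 3 separated the groups with differences of -0.63 ± 0.31, -0.55 ± 0.24 and -0.45 ± 0.19 on the log2 scale. The other 9 libraries ranged beyond both groups for Retnla (31.6 to 89.6) and Lurap1 (63.0 to 115), and over 38.7 to 72.8 for Mpg. Of genes whose role is not stated here, Vsig10l had 57.8, 47.5 and 47.5 in MHS against 83.3, 84.8 and 85.4 in NCS. Stum had 42.9, 46.6 and 35.7 in MHS against 81.3, 98.0 and 59.6 in NCS. Both separated the groups, and the other 9 libraries of Vsig10l ranged over 46.5 to 99.4, beyond both groups. Those of Stum (19.2 to 54.1) were all below the NCS values, so NCS and not MHS stood apart there. Sh2d6 had 41.0, 54.5 and 50.8 in MHS against 73.2, 129 and 75.7 in NCS, and the predicted gene Gm27252 had 41.9, 38.7 and 25.9 in MHS against 57.9, 86.9 and 81.9 in NCS. All 4 were lower in each MHS library than in any NCS library. The other 9 libraries ranged over 13.0 to 112 for Sh2d6 and 35.6 to 70.2 for Gm27252. Myhas, annotated as antisense to fast myosin heavy chain genes, had 206, 236 and 233 in MHS against 471, 344 and 353 in NCS; reads of the sense genes could be counted there, since the labels do not state the strand setting of the counting.

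Outside the lists, Stxbp2, a syntaxin-binding protein of secretory granule release in blood cells, had 62.4, 96.7 and 113 in MHS against 25.4, 31.3 and 49.0 in NCS and a difference of 1.35 ± 0.31. S1pr4, a lymphocyte receptor for sphingosine 1-phosphate, had 49.4, 48.3 and 84.3 in MHS against 32.5, 25.3 and 15.1 in NCS. Cbarp, a regulator of calcium channel beta subunits, had 39.1, 50.1 and 73.5 in MHS against 22.4, 26.3 and 24.03 in NCS. In each, MHS replicate 3, the library with the fewest detected genes, was the highest. The 5.8S ribosomal RNA gene n-R5-8s1, a species that the kit's depletion is meant to remove, had 79.2, 72.1 and 477 in MHS against 29.5, 27.3 and 30.3 in NCS, most of it in MHS replicate 3.

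Further lists had medians between -0.22 and 0.13, and most of these changed sign in at least 1 alternative. Myogenic genes had higher means in 8 of 18 (median -0.06), and Myog, the differentiation factor myogenin, had 146, 113 and 144 in MHS against 135, 329 and 195 in NCS, overlapping because NCS replicate 1 was under MHS replicates 1 and 3. Myokine and activin genes had higher MHS means in 6 of 18 (median -0.10), with 2 non-overlapping lower ones, among them Fst (follistatin, an activin and myostatin binder) at 46.6, 36.9 and 29.2 in MHS against 53.9, 53.5 and 51.6 in NCS. Lipid synthesis genes had higher MHS means in 12 of 21 (median 0.13), although Scd2, a fatty acid desaturase, had 327, 418 and 317 in MHS against 405, 614 and 469.9 in NCS. The groups overlapped for Scd2. Circadian genes had higher MHS means in 9 of 19 (median -0.04), with the clock output gene Dbp at 269, 169 and 187 in MHS against 271, 396 and 262 in NCS. DNA methylation genes had higher MHS means in 6 of 12 (median -0.01), with the glycosylase Mbd4 at 27.0, 29.0 and 3.24 in MHS against 32.5, 29.3 and 32.9 in NCS, where MHS replicate 3 was far below the rest and the groups did not overlap. Imprinted growth genes had higher MHS means in 7 of 20 (median -0.22, and 0.016 among genes with a mean of at least 50), with Dlk1, the preadipocyte factor, at 14.9, 25.5 and 4.32 in MHS against 27.4, 45.5 and 12.5 in NCS. Immediate early and heat shock genes had higher MHS means in 12 of 20 (median 0.10), with Fosb at 1.86, 12.3 and 7.56 in MHS against 13.2, 25.3 and 16.9 in NCS, where all MHS values were below all NCS values.

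Lists of other cell types and of matrix gave small or uneven differences. Extracellular matrix genes had higher MHS means in 17 of 34 (median 0.01), endothelial genes in 8 of 16 (-0.02), smooth muscle and pericyte genes in 2 of 12 (-0.13) and neuromuscular junction genes in 3 of 14 (-0.13). Adipocyte genes had higher MHS means in 3 of 13 (-0.13) and erythrocyte genes in 0 of 6 (-0.25). The erythrocyte median was 0.21 without MHS replicate 1, with 5 of 6 higher, and 0.056 without NCS replicate 3. Schwann cell genes had higher MHS means in 3 of 14, with a median of -0.40. Gjb1, a gap junction gene of Schwann cells that hepatocytes also express, was in that list at 9.32, 434 and 58.4 in MHS against 3.05, 29.3 and 12.5 in NCS and went with the liver genes. Skeletal muscle core genes had higher MHS means in 12 of 22 (0.04), AMPK and PGC-1 partner genes in 15 of 24 (0.03) and antioxidant genes in 15 of 25 (0.03).

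**Figure D5:**
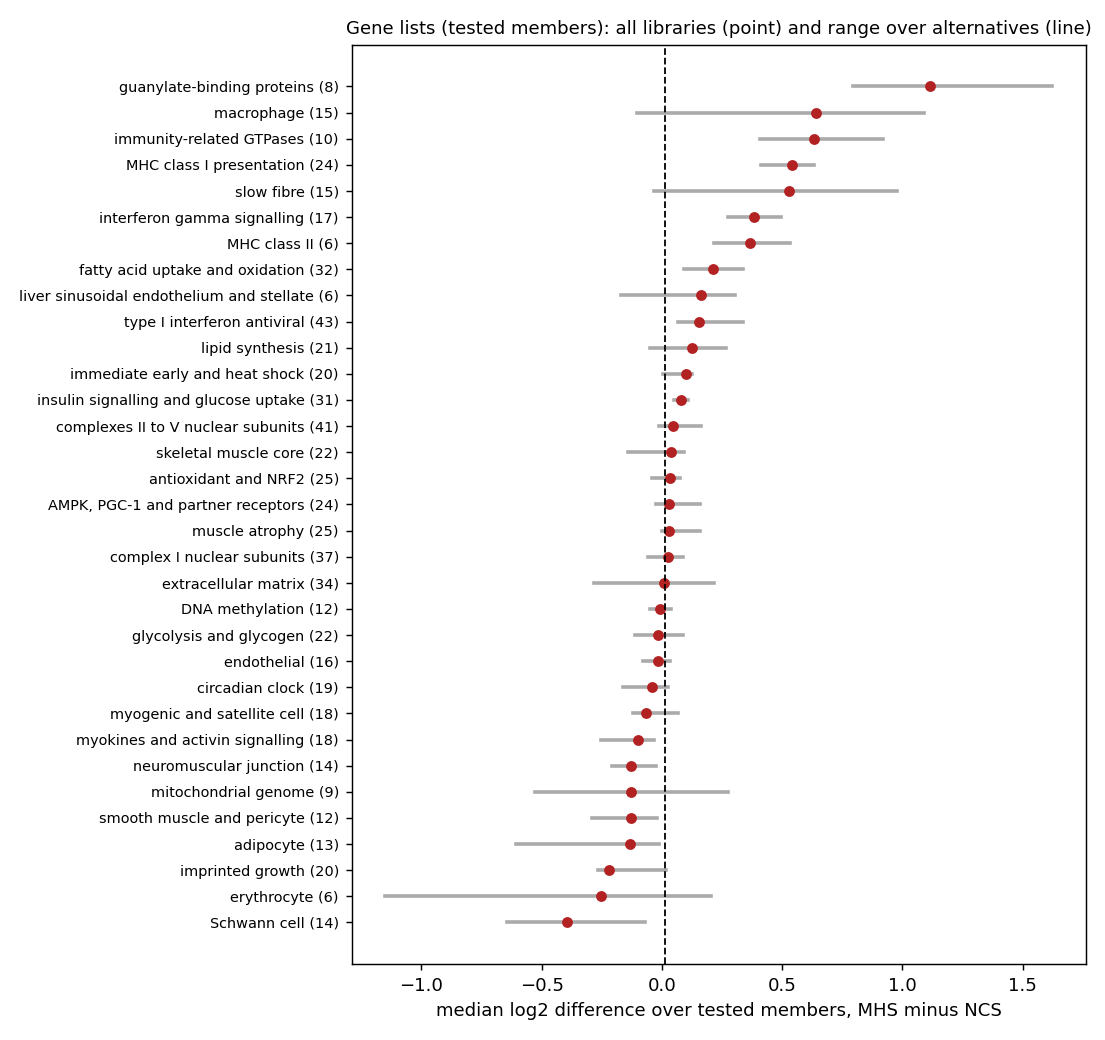
Median log2 difference, MHS minus NCS, over the tested members (number in brackets) of each gene list with at least 6 tested genes except the hepatocyte list, whose median of 4.14 lies off this scale; points use all libraries, grey lines span the alternatives, and the dashed line is the median of all tested genes. Guanylate-binding proteins lead at 1.12, and the lines of the macrophage and slow fibre lists reach below 0.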

How the data were processed

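Total RNA of quadriceps was depleted of ribosomal RNA with a stranded kit and sequenced as 100 bp single reads, per the labels' protocols. STAR 2.5.2b, featureCounts 1.5.2, DESeq2 1.11.8 and build mm10 are named in the submitters' processing notes. The deposited signal is read counts divided by the authors' size factors, which was deduced from the values: each was a whole multiple of the value of 1 read (100% of values, tolerance 0.001), so reads could be recovered. Recovered totals were 18457663 to 26981745 per library over the 15 libraries. How much of the spread between libraries is counting error was not estimated for the values given. Of 50686 genes 99.6% matched GENCODE M21 (GRCm38), the source of coordinates.

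The test was limma 3.58.1 (R 4.3.3; lmFit, contrasts.fit, eBayes with trend) on log2 values (pseudocount of 1 added to each normalized count), with all 15 libraries and 5 groups in 1 fit, for the 13499 genes with a mean of at least 10; 37187 genes were not tested. Differences understate those of low genes. Benjamini-Hochberg adjustment ran over all tested genes. Alternatives were edgeR 4.0.16, DESeq2 1.42.0 and limma voom on recovered reads, other pseudocounts, filters and scalings, and fits without libraries. Within-group pairs of libraries had a chi-square per degree of freedom of at least 32.5, so none was counted as a copy. On simulated counts for this comparison over 13499 genes 48% of 100 genes set to a fold of 2 and 87% of 100 set to a fold of 4 were recovered, with 8 unchanged genes called beside them and 0 called when no gene was changed. Those counts were drawn independently for each gene, with the depths of the real libraries. Differences that many genes share within a library, such as liver RNA, were not simulated, so the rates need not hold for these data.

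The comparison, the gene lists and the tests were chosen with earlier results of these data known. Genes are named by a rule: the 15 widest gaps in each direction among non-overlapping genes with a group mean of at least 50, genes DESeq2 called, the 10 smallest limma p-values, list members with an unadjusted p under 0.05 or else a list's largest difference, and 7 fixed genes. Isg15 and H2-Q10 were added after their values were seen, as were 3 genes of the closing observations. Some genes that the rule names are not reported here. Values were tested per gene, and lists are described by counts and medians only. Permutation tests used scipy 1.17.1, and figures matplotlib 3.10.9.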

Additional observations from a re-analysis of the deposited data

How the results depend on the processing

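No paired analysis was possible because sample titles are codes and replicate numbers follow accession order, so no replicate block was fitted. The count of genes passing the adjusted threshold, 0 by limma, was 18 by DESeq2 and 0 to 1 when 1 library was left out (1, Cd274, without MHS replicate 3). Of the 20 alternatives the other settings also gave 0. The count at an unadjusted p under 0.05 (546, 357 higher and 189 lower) was 1362 (835 and 527) with no filter on low values, 337 (225 and 112) at a mean of at least 50, 349 (233 and 116) with only the 6 libraries, and 172 (88 and 84) without the 4 libraries with liver transcripts. Higher genes numbered 212 with the liver score, and lower genes 66 without the 2 libraries with few detected genes. Leaving out 1 library gave 346 to 919 in all, 216 to 647 higher and 88 to 298 lower; without MHS replicate 2 there were 216 higher and 298 lower, without MHS replicate 1 647 higher, and without MHS replicate 3 88 lower. The causes of these moves were not tested beyond the number of libraries and genes each setting leaves. The liver CPM difference of 2141 was 247 to 3264 with 1 library left out and 751 over Alb and Apoa1 alone.

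Of 93 named genes 82 kept their direction in all 20 alternatives. H2-Q10 turned to -1.40 without the 4 liver libraries and -0.89 with the liver score, Apoa1 to -0.13 and Clec4f to -0.23 with that score, and Ppargc1a to -0.18 with it and -0.056 to 0.45 with 1 library left out (-0.056 without NCS replicate 3). Slc2a4 (-0.015) was 0.064 without the 4 liver libraries, 0.047 with the liver score, 0.0012 without the 2 libraries with few detected genes and -0.13 to 0.054 with 1 library left out. With 1 library left out Isg15 was -0.046 (without NCS replicate 1) to 0.36, Myh7 -0.034 (without NCS replicate 1) to 1.02 and mt-Nd1 -0.70 to 0.12 (without MHS replicate 3). Pdk4 was -0.025 and Dbp 0.015 without the 4 liver libraries, and Dlk1 0.069 without the 2 libraries with few detected genes. The cause was not tested. Of 37 gene lists the median of 22 changed sign in at least 1 alternative, and 13 of these lay within 0.15 of 0. Over the interferon and class I lists together the median stayed between 0.30 and 0.48.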

Other observations

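Genes annotated as lincRNA or antisense were more often lower than higher in MHS without overlap. Of 12406 tested protein-coding genes 559 were higher and 402 lower in MHS without overlap, with a median log2 difference of 0.02. Of 229 tested lincRNA genes 10 were higher and 24 lower without overlap (14.8%), with a median of -0.11. Of 230 genes annotated as antisense 4 were higher and 19 lower (10.0%), with a median of -0.13. Among 251 processed pseudogenes 11 were higher and 12 lower (median 0.03), and among 142 processed transcripts 6 were higher and 13 lower (median -0.01). With total read scaling the median was -0.01 for protein-coding, -0.14 for lincRNA and -0.16 for antisense genes. Without MHS replicate 3, the library with the fewest detected genes, the lincRNA median was -0.02 and the antisense median -0.066. The labels do not state the strand setting of the counting, so reads of antisense genes and of their sense partners may not be told apart, and the part of library differences in these values was not tested.

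All 3 MHS libraries lay below all 12 other libraries of the series for 21 genes (0.156%). Ano6 had the lowest unadjusted p of the 21. Among the 39 genes above all 12 and outside the gene lists were Parp10, a mono-ADP-ribosyltransferase with 242, 202 and 206 normalized counts in MHS against 137, 143 and 165 in NCS, and Gsdmd, the pore-forming gasdermin D of inflammatory cell death, with 86.6, 106 and 82.1 in MHS against 55.9, 54.5 and 69.4 in NCS. Mov10, an antiviral RNA helicase, had 43.8, 63.3 and 44.3 in MHS against 27.4, 39.4 and 34.7 in NCS. These 3 genes are known to be interferon-inducible or to act in the same responses, and they were picked here after their values were seen, so they add no independent support.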
